A study of Rattus norvegicus with 6 samples.

Results

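The genes described here are 10 members of the piRNA pathway, chosen by name: Piwil1, Piwil2, Tdrd1, Tdrd5, Tdrd6, Tdrd7, Tdrd9, Mael, Ddx4 and Mov10l1. All 10 are listed in the deposited tables, which hold 21170 genes. Expression was measured in single cells of testicular tissue from SD rats, an outbred laboratory stock. The control group held 3 normal rats, and the stressed group held 3 rats taken after a model of stress by a terrifying sound. Each animal gave 1 library, no group carried an engineered allele or a drug in the labels, and the labels used here give neither the age of the animals nor the length of the sound exposure.

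PIWI-interacting RNAs (piRNAs) are short RNAs of the germ line that guide PIWI proteins, a branch of the Argonaute family, to transposon transcripts and other targets. In the testis, precursor transcripts are unwound and cut at the surface of mitochondria, and the products are loaded onto PIWI proteins in cytoplasmic germ granules. Proteins with Tudor domains bind methylated arginines of PIWI proteins and hold these granules together: the intermitochondrial cement of spermatocytes and the chromatoid body of round spermatids. Most piRNAs of the adult testis belong to the pachytene class, named after the stage of meiotic prophase at which they accumulate.

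The libraries held 2342, 1801 and 2453 cells in controls 1 to 3 and 409, 2506 and 2233 cells in stressed animals 1 to 3, with 16756543 to 114984746 counts per library. No pair of libraries shared more than 1 cell barcode. Clusters made without the piRNA pathway genes put 1354 of the cells in a spermatocyte-like, 3787 in a round spermatid-like and 6222 in an elongating spermatid-like class, of 11744 in all. These are the later germ cells, and only 20 spermatogonia-like cells were found. Stressed 1 stood apart: it held 24, 84 and 52 cells of these classes, and 232 of its 409 cells fell in an unnamed cluster led by Apoe, Cd74 and Fos, which entered only the sums over all cells and 1 alternative. In its spermatocyte-like cells the summed stromal markers reached 790.8 CPM (counts per 1000000 counts of the class) and the macrophage markers 626 CPM, against at most 19.5 and 49.0 CPM in the other libraries. Their part in the results was not tested, and some of the results, not all, are also given without this library.

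Levels are CPM of all counts of a class in a library, and they are levels of transcripts, since no protein was measured here. They compare 1 gene between classes and libraries, not genes with each other, since no length enters them. A lower level in a class cannot be told apart from dilution by other transcripts that make up more of its counts.

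Of the PIWI genes, Piwil1 was higher in spermatocyte-like than in round spermatid-like cells of every library. Piwil1 encodes MIWI, which binds pachytene piRNAs. Its level in spermatocyte-like cells was 295.4, 334.1 and 157.6 CPM in controls 1 to 3 and 388.5, 260.04 and 120.03 CPM in stressed 1 to 3. In round spermatid-like cells it was 7.05, 3.57 and 6.69 CPM in the controls and 3.63, 1.62 and 7.24 CPM in the stressed animals. The ranges of these 2 classes did not overlap, whereas those of round and elongating cells did, with 0.946 to 3.14 CPM in the latter. From spermatocyte-like to round spermatid-like cells Piwil1 fell by 5.01 on the log2 scale (SE 0.38, adjusted p = 1.41e-09, edgeR's quasi-likelihood test, 6 of 6 libraries lower). A lower level in 6 of 6 libraries was found for 37.7% of the 12284 genes tested at this step and 54.2% at the next, while 0.326% of genes had a lower value than Piwil1. No change was called from round to elongating cells (0.24, SE 0.35, adjusted p = 0.573), and there the sign turned to -1.11 (adjusted p = 0.0111) when libraries were scaled by total counts.

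Piwil2, which encodes MILI and acts from the fetal gonocyte on, was close to the limit of detection outside spermatocytes. Its spermatocyte-like levels were 7.41, 14.8 and 4.45 CPM in the controls and 2.31, 7.13 and 1.40 CPM in the stressed animals, the value of stressed 1 resting on 2 counts in 24 cells. Round spermatid-like cells gave at most 0.443 CPM and elongating cells at most 0.197 CPM, with 2 libraries of each class at 0. The fall from spermatocyte-like to round cells was 4.59 on the log2 scale (SE 0.71, adjusted p = 1.52e-05), a value that depends on these few counts.

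Among the genes of Tudor proteins, Tdrd5 also fell before the round spermatid-like class. Tdrd5 combines a Tudor domain with LOTUS domains and is needed for chromatoid body assembly. Its spermatocyte-like levels were 60.4, 99.4 and 21.0 CPM in the controls and 81.8, 76.4 and 19.8 CPM in the stressed animals, against 1.06 to 2.81 CPM in round spermatid-like cells of all 6 libraries. Tdrd5 fell by 4.30 on the log2 scale at this step (SE 0.34, adjusted p = 2.97e-09). From round to elongating cells it rose by 1.25 (SE 0.32, adjusted p = 0.00267), although its CPM was lower in 3 of 6 libraries, and the value was -0.08 (adjusted p = 0.833) with scaling by total counts, so its direction there is set by the scaling.

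Tdrd9, an RNA helicase with a Tudor domain, fell at both steps. It had 62.3 to 101.3 CPM in spermatocyte-like cells (median of 6 libraries 75.9), 6.70 to 14.0 CPM in round cells (median 7.91) and 0.149 to 2.0 CPM in elongating cells (median 1.47). The changes were -2.54 (SE 0.31, adjusted p = 8.19e-07) and -1.53 (SE 0.32, adjusted p = 4.89e-04), the second being -2.87 with total counts, and the ranges of the 3 classes did not overlap.

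Transcripts of Tdrd6 and Tdrd7, which encode a pair of Tudor proteins of the chromatoid body, were retained in round spermatid-like cells and fell afterwards. Tdrd6 had 1201, 871 and 671 CPM in spermatocyte-like cells of controls 1 to 3 and 852, 614 and 754 CPM in stressed 1 to 3. Its round spermatid-like levels were 456, 412 and 318 CPM in the controls and 415, 303 and 349 CPM in the stressed animals. In elongating cells Tdrd6 dropped to 11.2 to 15.8 CPM in 5 libraries and 37.4 CPM in stressed 1. Its first change was small, -0.48 (SE 0.15, adjusted p = 0.00906), and was not called without control 1 (-0.38, adjusted p = 0.0564). With total counts it was -1.13. The second change was -3.36 (SE 0.16, adjusted p = 1.64e-11). For Tdrd7 the levels were 89.0 to 195.3 CPM in spermatocyte-like, 54.2 to 106.6 CPM in round and 1.23 to 2.84 CPM in elongating cells. Tdrd7 fell by 4.34 at the second step (SE 0.18, adjusted p = 2.79e-12), with 1.55% of genes tested below it. At the first step it gave -0.12 (SE 0.15, adjusted p = 0.508), although its CPM was lower in 6 of 6 libraries, and scaling by total counts gave a called fall of 0.77 on the log2 scale (adjusted p = 2.12e-04).

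Tdrd1, the scaffold that joins MILI to the intermitochondrial cement, declined over a longer span. Its spermatocyte-like levels were 171.0, 262.0 and 80.5 CPM in the controls and 305.5, 241.2 and 104.8 CPM in the stressed animals. Round spermatid-like cells had 58.1, 74.4 and 44.8 CPM in the controls and 94.4, 81.3 and 71.7 CPM in the stressed animals, and elongating cells 10.95 to 37.8 CPM. The changes were -0.69 (SE 0.16, adjusted p = 0.00104) and -0.66 (SE 0.16, adjusted p = 0.00177), each seen in 6 of 6 libraries. With total counts they were -1.35 and -1.93.

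Of the genes of helicases and granule proteins, Mov10l1 fell at the first step, Ddx4 at the second, and Mael rose at the first. Ddx4, the DEAD-box helicase VASA that marks germ cells, had 354.3, 353.8 and 314.1 CPM in spermatocyte-like cells of the controls and 239, 234 and 315 CPM in those of the stressed animals. In round cells it had 252, 217 and 219 CPM in the controls and 195, 146 and 200.4 CPM in the stressed animals, and in elongating cells 2.84 to 7.03 CPM. Ddx4 gave 0.11 (SE 0.17, adjusted p = 0.604) at the first step, with the sign turned by DESeq2's size factors (-0.10) and by total counts (-0.56, adjusted p = 0.00148), and fell by 3.88 on the log2 scale at the second (SE 0.20, adjusted p = 2.61e-11).

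Mael, a germ granule protein with an HMG-like domain that is needed for transposon silencing, was the one member higher in round spermatid-like than in spermatocyte-like cells. It had 754, 666 and 704 CPM in spermatocyte-like cells of the controls and 719, 483 and 542 CPM in the stressed animals, and 761, 808 and 647 CPM and then 806, 564 and 615 CPM in round cells. The ranges of the 2 classes overlapped, and within animals Mael was higher in round cells in 5 of 6. The rise of 0.77 (SE 0.13, adjusted p = 6.05e-05) shrank to 0.12 (adjusted p = 0.499) with scaling by total counts. Elongating cells still had 172 to 248 CPM of Mael in 5 libraries and 512 CPM in stressed 1, and that second step of -0.29 (SE 0.13) missed the threshold with an adjusted p = 0.0657, but passed it without stressed 1 (-0.33, adjusted p = 0.0104) and with total counts (-1.53, adjusted p = 2.11e-07).

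Mov10l1, the helicase that hands piRNA precursors to the cutting enzyme, had 115.9, 91.3 and 68.4 CPM in spermatocyte-like cells of the controls and 133.7, 58.0 and 52.3 CPM in the stressed animals. In round cells it lay between 11.2 and 14.7 CPM, a narrow range, and in elongating cells between 2.81 and 9.46 CPM. It fell by 1.96 on the log2 scale at the first step (SE 0.18, adjusted p = 2.08e-08). The second change was -0.37 (SE 0.18, adjusted p = 0.0873), called without stressed 1 (-0.42, adjusted p = 0.0356) and with total counts (-1.65, adjusted p = 1.17e-06).

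Counted together, 7 of 10 members fell and 1 rose from spermatocyte-like to round spermatid-like cells, and 5 fell and 1 rose from round to elongating cells. Among all 12284 genes, 65.8% were called at the first step (28.1% lower, 37.7% higher) and 61% at the second (34.1% lower, 26.9% higher). The members' median change was -1.33 at the first step and -0.51 at the second, beside 0.10 and -0.22 for all genes. These all-gene medians move with the scaling, to -0.09 and -0.03 with DESeq2's size factors in the same fit and to -0.54 and -1.50 with total counts. With total counts 9 members fell and 0 rose at the first step, 8 fell and 0 rose at the second. The split of all genes called then turned from 4625 higher and 3455 lower to 3676 and 5346 at the first step, and from 3305 and 4194 to 1214 and 7756 at the second. In elongating cells of stressed 1, 76.9% of cells belonged to the earliest elongating cluster, against 8.41% to 14.2% in the other libraries. Its elongating levels of Mael, Tdrd6, Tdrd1 and Mov10l1 were the highest of all libraries, whereas those of Ddx4 and Piwil1 were the lowest. Outside this class lay the 232 cells of stressed 1 in the unnamed cluster led by Apoe. Elongating spermatid markers summed to 155200 CPM in that cluster over all libraries. In those 232 cells Mael had 109.5, Tdrd6 9.81, Tdrd1 15.5, Mov10l1 9.42, Ddx4 4.04 and Piwil1 0.577 CPM. The part of the cluster share and of the cells left out in the elongating levels of stressed 1 was not tested.

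**Figure D1:**
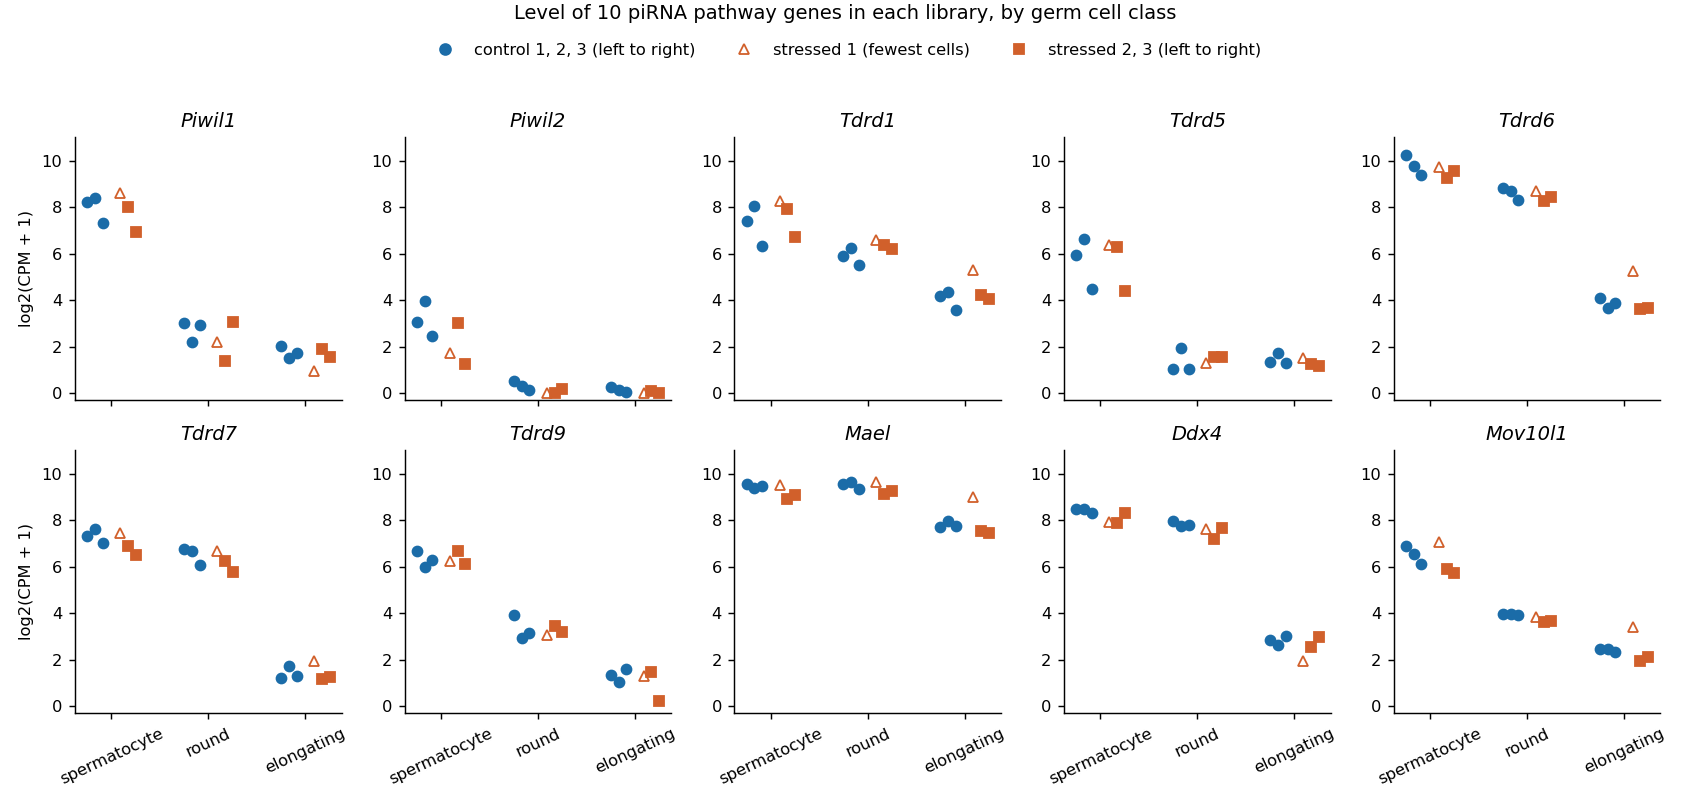
Level of each of the 10 genes as log2(CPM + 1) in the spermatocyte-like, round and elongating classes, with 1 point per library (circles control, squares stressed, open triangle stressed 1, which has 24, 84 and 52 cells). Piwil1, Piwil2 and Tdrd5 drop before the round class, Tdrd6, Tdrd7 and Ddx4 after it, and Mael keeps at least 172 CPM in elongating cells.

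**Figure D2:**
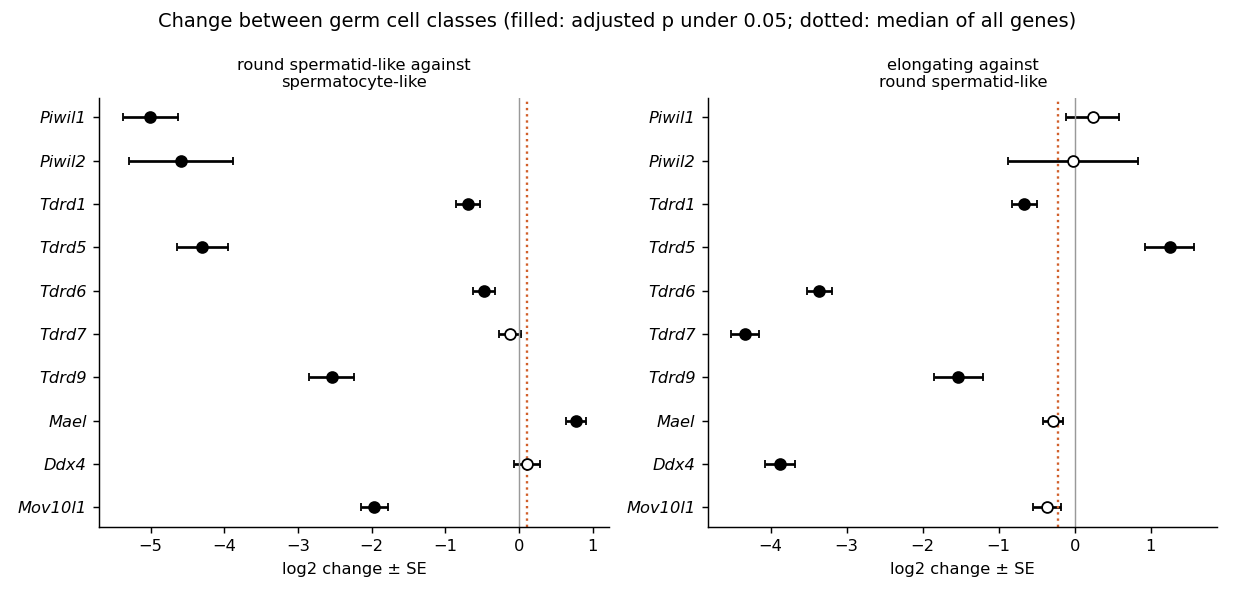
Log2 change between neighbouring classes with its standard error over 6 libraries, scaled by TMM with library as a term; filled points have an adjusted p under 0.05 and the dotted line is the median of all 12284 genes (0.10 and -0.22). Piwil1 has the most negative value of the members in the first comparison (-5.01) and Tdrd7 in the second (-4.34).

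The 11 germ cell clusters, put in order by markers other than piRNA genes, resolved these steps further. Cluster 1, with Psma8 of the meiotic proteasome among its leading genes, and cluster 2, with Aurka and Tpx2 of the division spindle, made up the spermatocyte-like class. Clusters 3 to 5 were round spermatid-like (with Tssk5 and Lrrc34, then Tex29 and Sun5, then Cd109 and Tmem123 among the leading genes), and clusters 6 to 11 elongating. Cluster levels are descriptions, each from libraries with at least 20 cells in the cluster, and clusters 8 to 11 divided by library: control 3 had 34.98% of its elongating cells in cluster 8 and 1.65% in cluster 9, control 2 0.2% and 33.4%.

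Piwil1, Piwil2, Tdrd5 and Tdrd1 dropped inside the spermatocyte-like class. From cluster 1 to cluster 2, Piwil1 went from 769, 928, 589 and 300 CPM in control 1, control 2, stressed 2 and stressed 3 to 80.5, 39.5, 35.2 and 59.5 CPM. All 4 libraries with both clusters were lower, as were 32.9% of 7016 genes. Tdrd5 went from a mean of 180 to 4.44 CPM, with a mean log2 ratio of -5.18, below which lay 0.0143% of genes. For Tdrd1 the means were 468 and 53.4 CPM and for Piwil2 19.7 and 1.64 CPM, again lower in 4 of 4 libraries. Tdrd9 dropped less at this point, from 145 to 52.3 CPM. Tdrd6, Tdrd7 and Ddx4 had higher means in cluster 2 than in cluster 1 (938 against 714, 154 against 116 and 334 against 267 CPM) and were higher in 3 of 4 libraries, and Mael, 650 against 532 CPM, was higher in 4 of 4, as were 29.3% of genes.

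The share of cluster 1 among spermatocyte-like cells differed between animals, at 29.4%, 32.9% and 15.3% in controls 1 to 3 and 41.7%, 41.3% and 22.1% in stressed 1 to 3. Control 3 and stressed 3, with the lowest shares, also had the lowest class levels of Piwil1, Tdrd5 and Tdrd1. The order was not the same throughout, since stressed 2 had less Piwil1 (260.04 CPM) than control 1 and control 2 at a higher share. Stressed 3 was also the lowest of 4 libraries within cluster 1 itself, with 300 CPM of Piwil1 against 589 to 928 CPM, 73.4 CPM of Tdrd5 against 175 to 286 CPM and 245 CPM of Tdrd1 against 417 to 668 CPM. The part of the cluster shares in the spread between animals was not tested.

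Mov10l1 and Tdrd9 were lower after each of the next boundaries. Mov10l1 averaged 75.4 CPM in cluster 1 and 81.9 CPM in cluster 2 over the same 4 libraries. Between clusters 2 and 3 it went from 78.3 to 24.2 CPM, lower in 5 of 5 libraries, and between clusters 3 and 4 from 27.7 to 9.10 CPM, lower in 6 of 6. Tdrd9 had 54.8 and 17.0 CPM and then 18.4 and 7.13 CPM over the same pairs. Lower values in every library were found for 42.5% of 6708 genes and 41.4% of 6350 genes at these steps (29.7% were higher in every library at the former), so the direction alone is common.

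Tdrd1 had a second, smaller maximum in round spermatids. Its level in cluster 3 was 30.2, 42.3 and 23.6 CPM in the controls and 37.2, 30.6 and 57.2 CPM in the stressed animals. In cluster 4 it was 82.7, 92.1 and 58.0 CPM and then 101, 114 and 87.9 CPM. Every library was higher in cluster 4, as were 22.6% of genes, and the mean ratio was 2.42-fold, with a mean log2 ratio above that of 89.5% of genes. Tdrd1 then stood at 73.6 CPM in cluster 5 and 32.1 CPM in cluster 6. None of the other members with a mean of at least 10 CPM in cluster 3 or 4 changed in this way: Mael was higher in 6 of 6 libraries by 1.07-fold, and Tdrd6, Tdrd7, Tdrd9, Ddx4 and Mov10l1 were lower in 6 of 6.

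Tdrd7 and Ddx4 had their steepest drop at the border of elongation. Ddx4 went from 300.3 CPM in cluster 3 to 216, 91.1 and 9.5 CPM in clusters 4, 5 and 6, and Tdrd7 from 138 to 87.5, 27.2 and 2.51 CPM. Between clusters 4 and 5 both were lower in 6 of 6 libraries, as were 37.9% of genes. Between clusters 5 and 6 Ddx4 was 9.59-fold and Tdrd7 10.8-fold lower in the means, lower in 6 of 6 libraries, as were 34.2% of 5358 genes. Only 0.504% and 0.691% of those genes had a more negative mean log2 ratio. Tdrd6 followed with 219 and 50.2 CPM at that border and 7.88 CPM in cluster 7. Mael was the last to go, with 566 CPM in cluster 6, 348 CPM in cluster 7 and means of at most 100.1 CPM from cluster 8 on.

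**Figure D3:**
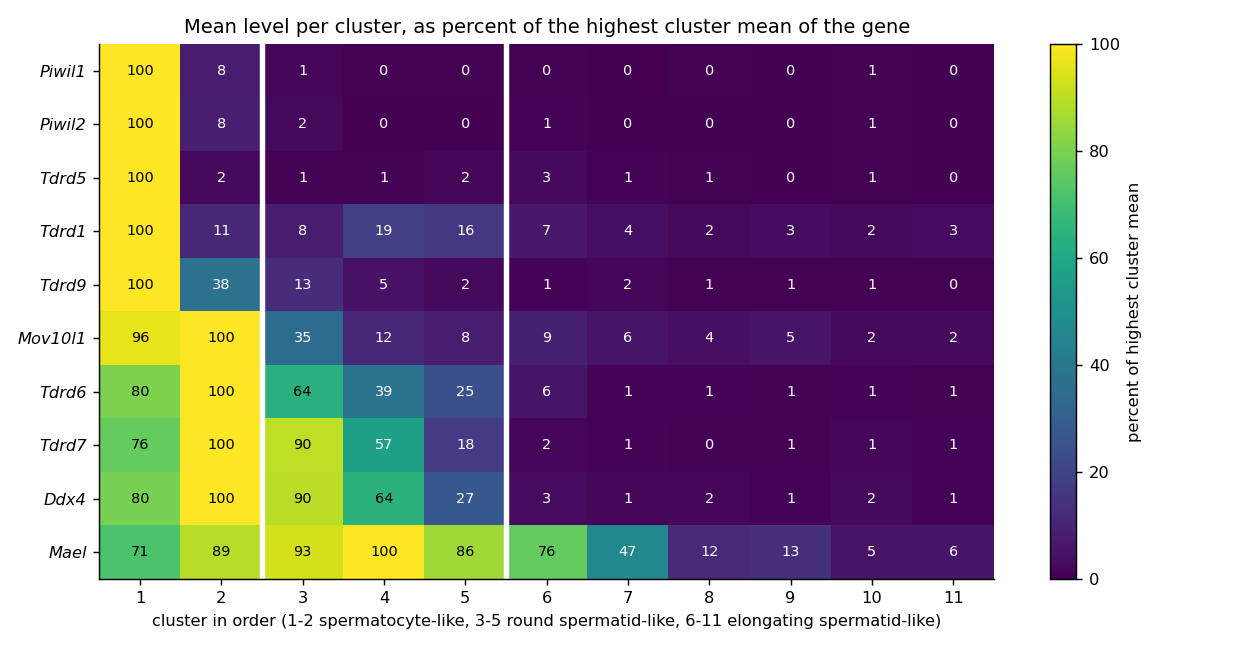
Mean level of each gene in 11 ordered clusters, given as percent of the gene's highest cluster mean (colour and printed number). The genes drop in steps from top to bottom: Tdrd5 is at 2.04% of its peak in cluster 2, Ddx4 at 2.84% of its peak in cluster 6, and Mael still at 46.8% of its peak in cluster 7.

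**Figure D4:**
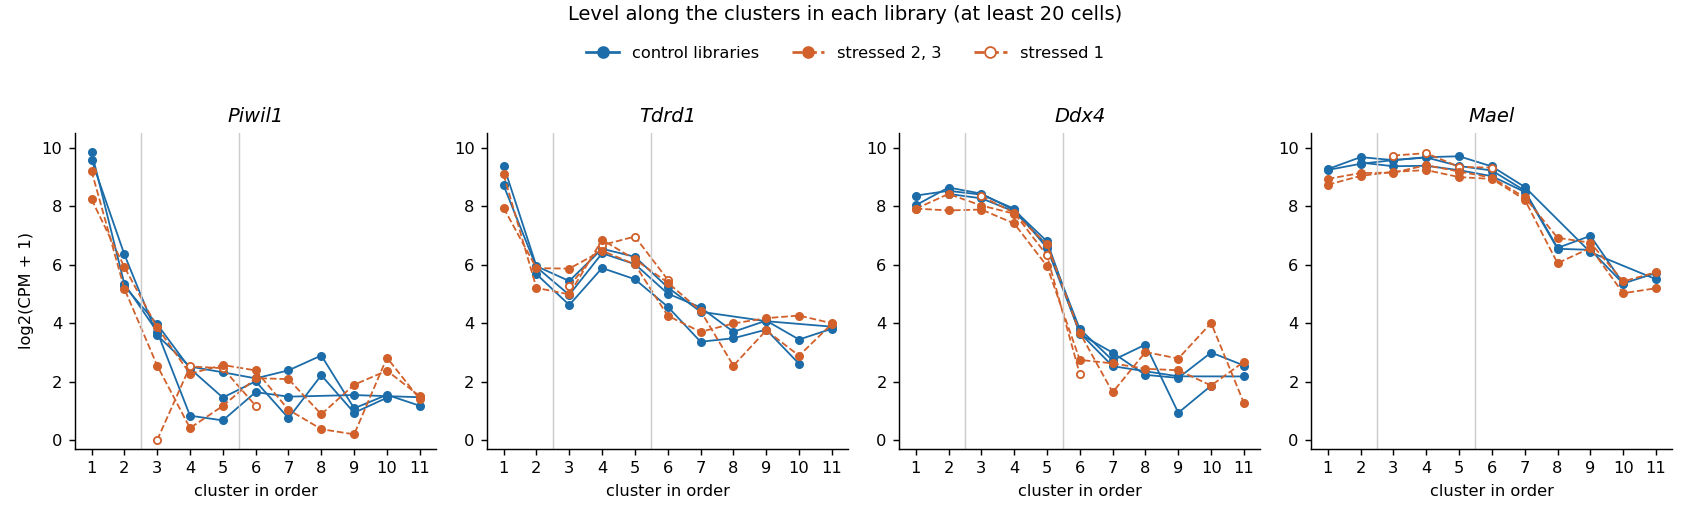
Level of Piwil1, Tdrd1, Ddx4 and Mael as log2(CPM + 1) along the ordered clusters, with 1 line per library with at least 20 cells in the cluster (solid control, dashed stressed). Vertical lines part the spermatocyte-like, round and elongating clusters; Tdrd1 rises from cluster 3 to cluster 4 in all 6 libraries.

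The likeness of the courses was measured by Pearson's r of log2(CPM + 1) over 18 sums of class and library, which share animals, so r is given as a description with no p. The closest pairs of members were Tdrd6 and Tdrd7 (0.989), Tdrd7 and Ddx4 (0.982) and Tdrd6 and Ddx4 (0.971), followed by Piwil1 and Tdrd5 (0.961). Among 6125 genes, Tdrd5 ranked 144 for likeness to Piwil1, so many other genes were closer to it. Tdrd6 ranked 6 for likeness to Tdrd7, and Tdrd7 ranked 46 for likeness to Tdrd6. The genes outside the 10 that were most like Piwil1 were Eif2b1 (0.994), Cdc20 (0.992) and Hmgb2l1 (0.991), and those most like Piwil2 included Prmt5 (0.958) and Tdrd12 (0.950), both on the wider pathway list. Rad17, Usp1 and Ccnb2 (0.993 each) were most like Ddx4, and Lypd4 (0.978), Ppp6c (0.973) and Wdr54 (0.972) most like Mael. Tdrd6 was nearest to Izumo4, Yeats4 and Dpy19l2 (0.9951 to 0.9955), and Tdrd1 to Arid2 (0.988).

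Since several members moved together, the 250 bases before their start sites were read from RefSeq promoters of build GRCr8, which matched 8 of 10 members. The table takes 1 start site a gene: the windows of Tdrd1, Tdrd5 and Tdrd7 lie wholly inside the outer limits of their RefSeq genes, 4 others partly and only that of Mael outside, so transcripts with starts farther upstream are not covered. Searched on both strands were CACGTG, the E-box bound by basic helix-loop-helix factors, and CAACNG, a MYB motif of the kind bound by the pachytene piRNA regulator Mybl1, together with its core AACNG. No CACGTG match overlapped a CAACNG match, and each CAACNG match is also an AACNG match. The 5 promoters printed are those that hold CACGTG. Capitals mark CACGTG and CAACNG matches on either strand. The windows are chr12:33606584-33606833 on the minus strand for Piwil1, chr1:265880775-265881024 on the plus strand for Tdrd1, chr7:121949572-121949821 on the plus strand for Mov10l1, chr2:46015952-46016201 on the minus strand for Ddx4 and chr13:81029624-81029873 on the minus strand for Mael.
Piwil1: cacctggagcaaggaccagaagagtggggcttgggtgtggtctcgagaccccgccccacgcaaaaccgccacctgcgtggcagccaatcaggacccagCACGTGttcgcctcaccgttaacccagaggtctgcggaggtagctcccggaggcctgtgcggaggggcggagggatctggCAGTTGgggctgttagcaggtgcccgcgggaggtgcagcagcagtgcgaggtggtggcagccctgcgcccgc
Tdrd1: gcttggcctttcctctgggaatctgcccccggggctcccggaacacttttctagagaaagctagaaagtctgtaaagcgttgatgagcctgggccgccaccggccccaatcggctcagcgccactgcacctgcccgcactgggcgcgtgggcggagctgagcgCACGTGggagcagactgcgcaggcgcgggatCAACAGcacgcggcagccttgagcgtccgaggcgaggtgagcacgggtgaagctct
Mov10l1: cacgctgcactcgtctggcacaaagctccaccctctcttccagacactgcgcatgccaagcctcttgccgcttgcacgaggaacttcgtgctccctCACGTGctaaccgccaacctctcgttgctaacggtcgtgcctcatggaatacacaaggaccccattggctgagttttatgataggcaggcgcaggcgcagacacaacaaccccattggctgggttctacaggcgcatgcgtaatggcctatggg
Ddx4: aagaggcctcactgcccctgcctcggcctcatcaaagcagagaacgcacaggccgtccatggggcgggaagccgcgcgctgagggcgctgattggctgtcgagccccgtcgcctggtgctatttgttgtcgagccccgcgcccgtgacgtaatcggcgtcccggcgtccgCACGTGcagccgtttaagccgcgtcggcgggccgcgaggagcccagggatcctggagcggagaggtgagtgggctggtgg
Mael: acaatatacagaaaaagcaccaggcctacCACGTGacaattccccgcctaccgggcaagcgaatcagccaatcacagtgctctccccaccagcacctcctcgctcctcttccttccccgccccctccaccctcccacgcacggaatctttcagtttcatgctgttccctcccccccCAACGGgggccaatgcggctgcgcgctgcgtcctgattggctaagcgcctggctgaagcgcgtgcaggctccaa
CACGTG starts 152 bases before the start site used in Piwil1, 87 in Tdrd1, 154 in Mov10l1, 80 in Ddx4 and 221 in Mael. It was found in 5 of 8 members and in 5.59% of 33469 promoters of the same length. The members' promoters were also richer in CG dinucleotides (median 16.5 against 5), and among 8639 promoters with at least 15 CG the share was 9.97%, beside 5 of 6 members with as many. CAACNG was found in 4 of 8 members (30.3% of all promoters) and AACNG in 7 of 8 (75.2%). No test was run on these 8 promoters. The E-box genes include an early gene, Piwil1, and the late ones Ddx4 and Mael. A match is a run of letters and shows no binding.

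The wider pathway list held 44 genes, 43 of them in the tables and 33 of those outside the 10 members. At the first class step 28.1% of all 12284 genes were called lower and 37.7% higher, and at the second 34.1% and 26.9%. Of 30 genes of this list outside the members tested between classes, 19 fell and 5 rose from spermatocyte-like to round cells. From round to elongating cells 12 fell and 5 rose. Fkbp6, a co-chaperone of piRNA loading (-4.34, SE 0.28, adjusted p = 2.23e-10), and Prmt5, which methylates the arginines that Tudor domains bind (-4.62, SE 0.34, adjusted p = 1.11e-09), were among those that fell first. The fall also held Pld6, the nuclease of the mitochondrial surface (-4.80), and Asz1 and Tdrkh of the same surface (-2.15 and -2.31). Gpat2 and Pnldc1, listed under the same role, were not called at this step (-0.26 and -0.70). Mybl1, the A-MYB regulator of pachytene piRNA loci, fell by 0.82 on the log2 scale and Tcfl5 by 1.33. Gtsf1l (3.47), Kif17 (3.36), Gtsf2 (2.38), Gtsf1 (2.32) and Piwil4 (3.27) rose at the same step. With total counts 5 of the 30 rose and 21 fell, beside 3676 and 5346 of all 12284 genes. Piwil4 stayed at 0.820 to 2.12 CPM in round cells. Dnmt3l, a cofactor of DNA methylation known from fetal germ cells, rose by 5.88 in elongating cells (SE 0.48, adjusted p = 6.29e-09), from 0.238 to 1.53 CPM in round cells to 5.85 to 23.7 CPM, ranges that did not overlap. Gtsf1 (0.78), Kif17 (1.47), Tcfl5 (0.69) and Tdrd3 (0.53) were also called higher there. By contrast, with total counts 1 of the 30 rose and 24 fell, beside 1214 and 7756 of all 12284 genes.

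The comparison the study was designed for sets the stressed against the control animals. No member was called in any class. Of 10 members tested in spermatocyte-like cells and 9 each in round and elongating cells (Piwil2 was below the filter there), 0 passed an adjusted p of 0.05 in edgeR's quasi-likelihood test, and 0 passed in DESeq2. An unadjusted p under 0.05 was found for 0, 1 and 0 members by either tool, and by edgeR for 185, 275 and 187 of all genes. Over all genes, 0% of 9987, 0.0167% of 11962 and 0.00902% of 11088 were called in the 3 classes (in round cells 0.00836% in each direction), and the wider list gave 0 of 27, 28 and 27. In simulated data of the round cell comparison, genes changed 4-fold were recovered in 59% of cases and genes changed 2-fold in 0%. The simulation gave every gene the same assumed spread between animals. The members' standard errors in this comparison ran from 0.18 (Mael) to 0.61 (Tdrd5), so these rates do not give the power for single members.

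**Figure D5:**
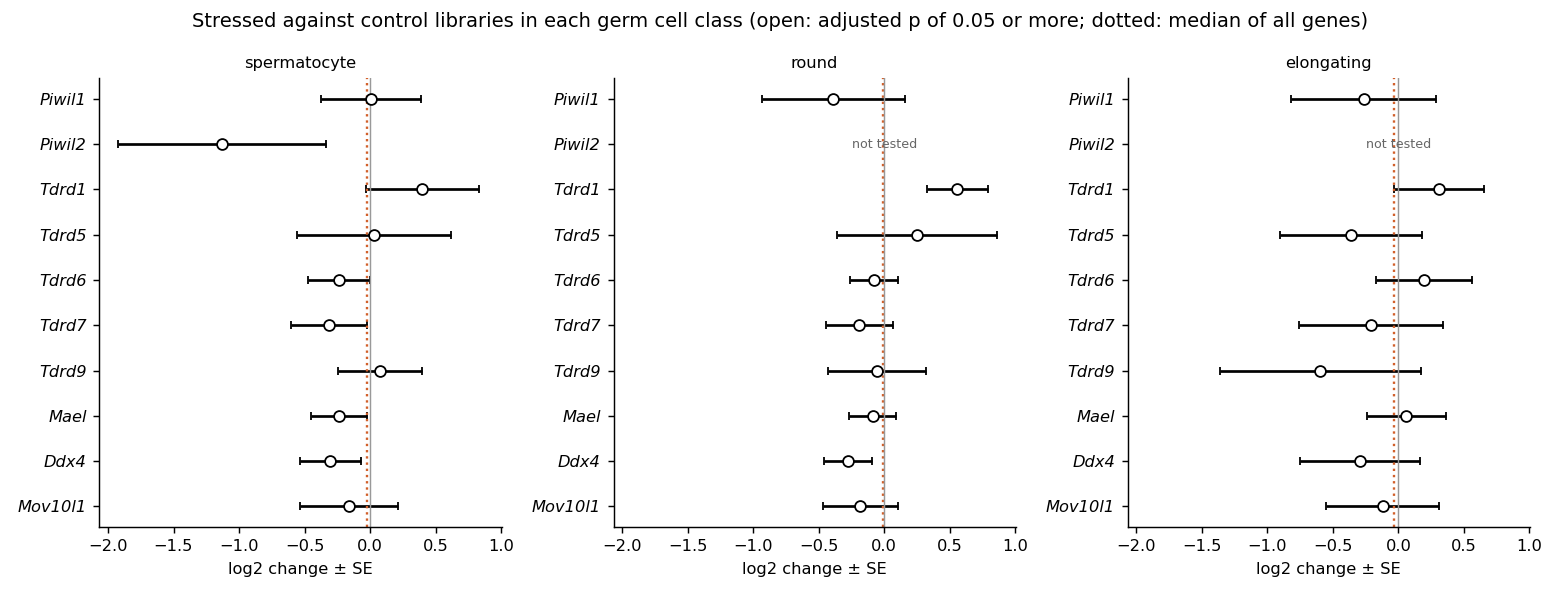
Log2 change of each gene, stressed against control libraries, with its standard error in the spermatocyte-like, round and elongating classes; every point is open since no adjusted p was under 0.05, and the dotted line is the median of all genes. Points lie on both sides of 0 in each class, and Tdrd1 in round cells (0.56, SE 0.23) has the smallest unadjusted p.

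Tdrd1 in round spermatid-like cells gave the smallest unadjusted p of the members, with the levels printed above: 44.8 to 74.4 CPM for the controls against 71.7 to 94.4 CPM, control 2 lying inside the stressed range. The difference was 0.56 (SE 0.23, unadjusted p = 0.0355, adjusted p = 0.999). Without stressed 1 it was 0.49, and over all alternatives it ran from 0.41 to 0.77, with adjusted p from 0.845 to 1.00. Tdrd1 gave 0.40 (SE 0.43) in spermatocyte-like and 0.31 (SE 0.34) in elongating cells. These fell to 0.10 and 0.13 without control 3 and to 0.14 and 0.17 without stressed 1, and were 0.81 and 0.49 without control 2.

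Ddx4 and Mov10l1 were lower in every stressed than in every control library in round spermatid-like cells, at 146 to 200.4 against 217 to 252 CPM for Ddx4 and 11.2 to 13.4 against 14.1 to 14.7 CPM for Mov10l1. These were 2 of 9 members tested, beside 8.34% of all genes whose groups did not overlap in this class. The differences were -0.28 (SE 0.18, adjusted p = 0.999) and -0.18 (SE 0.29, adjusted p = 0.999). Within the round clusters Ddx4 was apart in cluster 4 (225 to 240 CPM against 169 to 217 CPM with stress) and overlapped in cluster 3 (307 to 343 against 235 to 323 CPM) and cluster 5 (94.1 to 110 against 60.8 to 103 CPM). Mov10l1 was apart in cluster 4 (10.2 to 12.4 against 5.51 to 8.63 CPM) and cluster 5 (8.28 to 8.48 against 2.73 to 6.35 CPM). In cluster 3 it overlapped, with 22.4 to 25.4 CPM in controls, 24.0 and 24.3 CPM in stressed 2 and 3, and 45.6 CPM in stressed 1 from 27 counts in 20 cells. Stressed 1 also had few cells in clusters 4 and 5, at 37 and 27. Ddx4 and Mov10l1 were followed into the clusters because their groups were apart in the class, and the clusters divide the same cells. The cluster values are therefore no separate support for a difference. The groups of the other members are not compared within clusters here. The share of all genes whose groups were apart within a cluster was not computed, so these cluster values are descriptions only. Groups did not overlap for 0 of 10 members in spermatocyte-like cells (8.76% of genes) and 0 of 9 in elongating cells (6.11%).

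Piwil1 gave 0.01 (SE 0.38), -0.39 (SE 0.54) and -0.26 (SE 0.55) in the 3 classes, and the groups overlapped in each. Its mean in spermatocyte-like cells was 262 ± 92.8 CPM in controls and 256 ± 134 CPM in stressed animals (SD, n = 3 each). Its round value rested on single libraries, being -1.22 without stressed 3 and -0.0022 without stressed 2. Piwil2 gave -1.13 in spermatocyte-like cells (SE 0.80, adjusted p = 1.00), from 8.87 ± 5.30 and 3.61 ± 3.08 CPM (SD, n = 3 each), and -0.60 without control 2 or -2.26 without stressed 2. In the spermatocyte-like cells of stressed 1, single cells held 38.3% of the Piwil1 counts and 50% of the Tdrd9 counts, so its values there rest on few cells.

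Summed over all cells of a library, Tdrd7 and Mael were lower in every stressed than in every control library. Tdrd7 had 66.4, 45.1 and 40.4 CPM in controls and 25.8, 27.6 and 35.9 CPM in stressed animals, and Mael 491, 433 and 456 CPM and then 308, 295 and 404 CPM. These were 2 of 10 members, beside 5.56% of 14519 genes, and 0.00689% of genes were called. The differences were -0.57 (SE 0.28, adjusted p = 1.00) for Tdrd7 and -0.29 (SE 0.25, adjusted p = 1.00) for Mael, and -0.51 and -0.26 without stressed 1. In that library 60.4% of the cells and 10964756 of 16756543 counts belonged to unnamed clusters, and its macrophage markers summed to 491.8 CPM over all cells, against at most 83.3 CPM elsewhere; their part in these sums was not tested. Fewer cells of a stage and less RNA per cell cannot be told apart in such sums: spermatocyte-like and round cells made up 48.7%, 39.5% and 50.1% of control cells and 26.4%, 30.1% and 53.6% of stressed cells.

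Whether the change between classes itself differed between the groups was tested with an interaction term over 13800 genes, of which 0% were called in either step. For the members 0 of 10 were called at each step, with 0 at an unadjusted p under 0.05. Values ran from -0.27 (Piwil1, SE 0.70) to 0.43 (Tdrd5, SE 0.65) at the first step and from -0.92 (Tdrd9, SE 0.65) to 0.21 (Piwil1, SE 0.72) at the second, all with an adjusted p = 1.00. The early fall of Piwil1 was present in both groups: its round level was 1.07% to 4.24% of its spermatocyte-like level in the controls and 0.625% to 6.04% in the stressed animals.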

How the data were processed

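Testicular cells of 6 SD rats (3 control, 3 stressed) were captured with the GEXSCOPE single-cell kit and sequenced on a NovaSeq, per the labels' protocols. The authors deposited raw counts per gene and cell, which were used here. Their aligner, genome build and cell filter are not given in the sources used, nor whether 1 count is a read or a molecule. Intervals take each count as independent, so they cover at most counting error and are too narrow if 1 count is a read. Total counts ran from 16756543 to 114984746 per library, lowest in stressed 1, which has the fewest cells. Median counts per cell ran from 27987 in stressed 3 to 41632 in control 3, with 35263 in stressed 1.

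Cells were clustered with scanpy 1.11.5 (2000 variable genes less 11 piRNA pathway genes and 11 mitochondrial genes, 30 principal components, 15 neighbours, Leiden resolution 1) and named "-like" from marker lists. Scrublet called 73 cells as doublets (0.622%), which were kept in the main analysis, and an alternative left out the 543 cells with the top 5% of scores within libraries. Sums of counts were made for each class of a library with at least 20 cells in it. Groups come from the sample titles. Tests used edgeR 4.0.16 in R 4.3.3 (filterByExpr, TMM, robust quasi-likelihood) with Benjamini-Hochberg adjustment over all genes tested, and class comparisons had library as a term. A script checked the fits on simulated data. Alternatives were DESeq2 1.42.0 as test or size factors, total counts, no filter, other clusterings, doublets left out, each library left out and a replicate block. Counting the Apoe cluster as elongating was chosen after seeing the data.

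All 10 members are described in every class. The genes most like each member are the top 3 by r. From the wider list, genes called at a step were named by role after their values were seen. The members and lists were chosen with earlier results of these data known.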

Additional observations from a re-analysis of the deposited data

How the results depend on the processing

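Under the alternatives, the members' log2 changes kept their direction and side of the threshold in 143 of 150 values at the first class step. At the second they did in 134 of 150, and in the stress comparison in 391 of 425. For the sums over all cells only Tdrd7 and Mael were counted. The sign changed in 3, 10 and 34 values. Where direction or side was not kept, the cause was not tested. From round to elongating cells, total counts gave Piwil1 -1.11 and Tdrd5 -0.078, and Piwil2 gave 0.14 with DESeq2's size factors, 0.20 with its test, 0.066 without likely doublets, 0.022 at Leiden resolution 2 and 0.22 with no library term. From spermatocyte-like to round cells, Ddx4 gave -0.10, -0.56 and -0.11 with DESeq2's size factors, total counts and DESeq2's test. Leaving out 1 library moved the second step of Piwil1 from -0.13 to 0.45 and of Piwil2 from -0.44 to 0.40. The number of members called also moved. At the first step 8 fell with DESeq2's test and 6 without control 1, beside 7 in the main fit. At the second, 6 fell at Leiden resolution 2 and with the Apoe cluster counted as elongating. Without stressed 1 it was 7, beside 5 in the main fit.

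For the stress comparison, DESeq2's test called 4, 12, 7 and 14 genes in spermatocyte-like, round, elongating and all cells, tests with no filter 2, 5, 10 and 2, and total counts 0 in elongating cells. None of these was a member. Without 1 library, 0 to 5, 0 to 3 and 0 to 3 genes were called in round, elongating and all cells. In elongating cells, counting the Apoe cluster gave Mael -0.24, Mov10l1 0.32 and Tdrd6 -0.052, resolution 2 gave Mov10l1 0.10 and Tdrd6 -0.31, and total counts gave Mov10l1 0.13. In spermatocyte-like cells, Piwil1 gave -0.042 with total counts, -0.0018 with no filter and -0.035 at resolution 2, Tdrd5 -0.040 and -0.030 with total counts and resolution 2, and Tdrd9 -0.064 without likely doublets. Without 1 library, elongating values ran from -0.72 to 0.022 for Ddx4, -0.23 to 0.22 for Mael, -0.41 to 0.10 for Mov10l1, -0.70 to 0.039 for Piwil1, -0.16 to 0.39 for Tdrd6 and -0.37 to 0.091 for Tdrd7. Round values ran from -0.010 to 0.84 for Tdrd5 and -0.26 to 0.27 for Tdrd9. Spermatocyte-like values ran from -0.62 to 0.080 for Mov10l1, -0.34 to 0.36 for Piwil1, -0.34 to 0.56 for Tdrd5 and -0.11 to 0.23 for Tdrd9.

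Controls and stressed animals share replicate numbers, but not every pair deviated together: over the 4 sums the correlation was 0.0837 to 0.278 for number 3, which was closest to its own number in each, and -0.226 to 0.0626 for numbers 1 and 2, of which number 1 was so only in spermatocyte-like cells and number 2 in none. With a replicate block, 0, 2, 1 and 1 genes were called in spermatocyte-like, round, elongating and all cells, 0 of them members, and the block turned the sign of Piwil1 in spermatocyte-like (-0.063) and Tdrd9 in round cells (0.0014). Total counts are lowest in stressed 1, with 24 spermatocyte-like cells, whereas median counts per cell are lowest in stressed 3.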

Other observations

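The 20 spermatogonia-like cells, pooled over libraries, entered only the sums over all cells. Intervals are exact Poisson 95% intervals that take each count as independent. They cover at most counting error and are too narrow if 1 count is a read. Tdrd5 had 104 CPM in them (78.8 to 135, from 57 counts in 14 cells), Mael 133 CPM and Ddx4 62.1 CPM (43.0 to 86.8). Control 2 gave 28 of the 57 Tdrd5 counts, 59 of 73 Mael counts and 26 of 34 Ddx4 counts. The cell with the most counts held 15, 35 and 13 of them, so these levels rest on few cells. Piwil1 had 3 counts in 1 cell and Piwil2 1 count. Elongating spermatid markers summed to 21410 CPM and stromal markers to 964.2 CPM in these cells, beside 2889 CPM of spermatogonia markers, and the stromal score (3.12) was above the spermatogonia score (2.29). Counts from free RNA or from other cells were not told apart from expression here.

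In the 317 cells of the cluster without a name (Apoe, Cd74 and Fos lead it), Mael had 109 CPM (104 to 115, in 124 cells) and Tdrd1 14.9 CPM. Ddx4 had 3.38 CPM, Piwil1 0.808 CPM from 11 counts, and Piwil2 0 counts. Elongating spermatid markers summed to 155200 CPM in this cluster and macrophage markers to 525.2 CPM. Of its cells, 232 came from stressed 1 and 74 from control 2.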
